A study of Mus musculus with 16 samples.

Results

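The effect of diabetes on the atherosclerotic aorta was described in 4 diabetic mice, against 4 non-diabetic mice, 8 of the 16 arrays of the study. The samples were chosen by their titles (DM_HF_10wk and NDM_HF_10wk), and no measured value entered that choice. All 8 mice were APOE-/- and ate a high fat diet for 10 weeks from 8 weeks of age, and whole aorta was taken at 18 weeks of age. The diabetic mice had been given streptozotocin (STZ), a toxin of insulin-producing beta cells, at 6 weeks of age. None of the 8 had ruboxistaurin (RBX), an inhibitor of protein kinase C beta. The remaining 8 mice, 4 diabetic and 4 non-diabetic, had RBX in the same diet. They entered this comparison only through the estimate of the spread and the filter on dim probe sets, and the genes called are read in them at the end. Each array is labelled as a separate biological replicate from an individual mouse, so p-values refer to the spread between mice. Every group carried the APOE deletion and the high fat diet, and STZ removes insulin rather than making tissue resistant to it.

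The wall of the aorta is mostly smooth muscle, lined by endothelium and surrounded by adventitia with fibroblasts, macrophages and fat. Smooth muscle contracts when calcium activates myosin, and it relaxes when cyclic AMP or cyclic GMP builds up, the second through nitric oxide and soluble guanylyl cyclase. Interferons act through receptors that switch on antiviral genes, many of which carry a short promoter element, the interferon-stimulated response element (ISRE). In plaques, endothelium recruits monocytes, macrophages take up lipoprotein, and smooth muscle cells can lose contractile proteins. A whole vessel mixes all these cells, so fewer cells of a type and less RNA per cell cannot be told apart.

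Probe set signals were on a linear scale and already scaled by the authors, and each gene was read by its brightest probe set. Each signal is relative to its own probe set, so levels were not set against each other between genes. Markers of the aorta were present in both groups: the summed signal of 23 contractile smooth muscle genes was 819410 to 983378 in diabetic mice, against 1015600 to 1117760 in non-diabetic mice. On the first principal component of the 8 arrays, which held 32.2% of the variance, the diabetic mice lay at -1.61, 10.2, 25.8 and 23.6, against -19.2, -18.8, -0.91 and -19.1 for the non-diabetic mice. Non-diabetic mouse 3 therefore lay next to diabetic mouse 1. The cre hybridisation control, bacteriophage cRNA that is added before hybridisation, read 226062, 275438, 240151 and 207830 in diabetic mice, against 156465, 161155, 249020 and 184160 in non-diabetic mice. The groups overlapped in it through non-diabetic mouse 3 alone (log2 difference 0.36, exact two-sided permutation p = 0.114, adjusted p = 0.214 over 6 array measures). The Actb 3' to 5' signal ratio, which rises with RNA breakdown, was 1.46, 1.52, 1.24 and 1.16 on the log2 scale in diabetic mice, against 1.02, 0.85, 1.32 and 0.97 in non-diabetic mice. Here too the groups overlapped through non-diabetic mouse 3 alone (difference 0.31, exact two-sided permutation p = 0.0857, adjusted p = 0.214). With 4 mice against 4 this exact test cannot give a p below 0.0286.

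Non-diabetic mice 1 and 2 gave the most alike pair among the arrays. Over the 11043 genes the SD of their log2 difference was 0.291 and 102 genes differed by more than 2-fold. The next closest pair, non-diabetic mice 2 and 4, had an SD of 0.366 and 217 such genes. Both mice also had signals for immunoglobulin genes that stood far above the rest. The probe set chosen for Ighm, the mu heavy chain of antibodies, read 1387, 926.1, 1112 and 1437 in diabetic mice, against 44845, 52138, 2021 and 1399 in non-diabetic mice. On another Ighm probe set non-diabetic mice 1, 2 and 3 read 11415, 12941 and 9419, so mouse 3 came close. Jchain, which joins secreted antibody subunits, read 340.6, 251, 415.2 and 202 in diabetic mice, against 5315, 5488, 1422 and 153.2 in non-diabetic mice. It read 4571 in non-diabetic mouse 4 with RBX. The arrays did not hold identical values and their labels call them separate mice, so both were kept. Whether they share RNA was not tested. Results were also computed with their mean as 1 sample, a setting chosen after seeing the data.

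**Figure D1:**
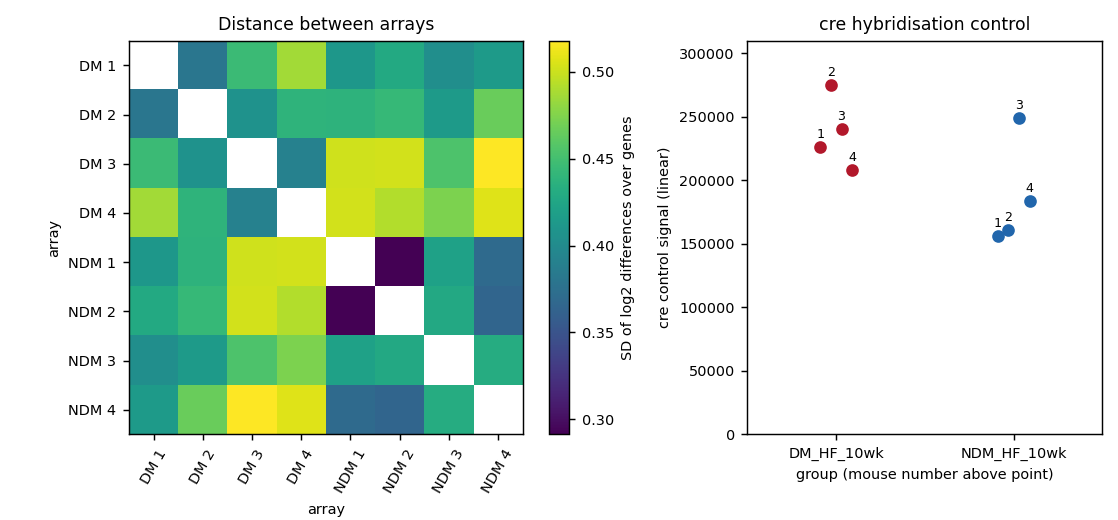
Left, the SD of log2 differences over 11043 genes between each pair of the 8 arrays, diabetic (DM) above and left of non-diabetic (NDM); the darkest square off the diagonal, 0.291, is non-diabetic mice 1 and 2. Right, the linear signal of the cre hybridisation control, 1 point per mouse with its number; only non-diabetic mouse 3 lies among the diabetic mice.

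Diabetes raised 36 genes and lowered 36 of the 11043 tested, at an adjusted p under 0.05 (limma, Benjamini-Hochberg). These are 0.652% of the genes, 0.326% in each direction, and 1683 genes had an unadjusted p under 0.05. At that unadjusted p 8.14% of all genes were higher and 7.1% lower in diabetic mice. Over all genes the median log2 fold change was 0.01 and 52.4% lay above 0. The rises ran from 0.40 to 1.88 on the log2 scale with a median of 0.80, and the falls ran from -0.44 to -1.48 with a median of -0.87. In 69 of the 72 genes the 4 diabetic mice did not overlap the 4 non-diabetic mice, which held for 9.44% of all genes (4.55% higher and 4.89% lower). A further 61 genes differed by more than 2-fold without passing, with a median standard error of 0.42, against 0.16 for the called genes.

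With non-diabetic mice 1 and 2 averaged as 1 sample, 2 genes passed (limma, 1283 at an unadjusted p under 0.05). They were Iigp1, an interferon-inducible GTPase, which rose, and Sphkap, which anchors protein kinase A and fell. All 72 genes kept their direction there with an unadjusted p of at most 0.00167, and the median size of their log2 fold changes was 0.82, against 0.83 as reported. With the cre signal as a covariate 4 genes passed, and all 72 kept their direction with a median size of 0.68. With the Actb ratio as a covariate 14 genes rose and 7 fell. The part of either measure in the group difference was not tested otherwise.

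Single mice moved the counts widely. Without diabetic mouse 1, 2, 3 or 4 the raised genes numbered 124, 14, 1 and 10, and the lowered genes 99, 10, 0 and 14 (limma, with 1150 genes at an unadjusted p under 0.05 where the count was 0). Without non-diabetic mouse 1, 2, 3 or 4 they numbered 1, 1, 139 and 9 raised and 1, 1, 195 and 14 lowered. Iigp1 alone passed in all 8 of these fits, and none of the 72 genes changed direction in any of them. Among the lowered genes non-diabetic mouse 3 was the one nearest to the diabetic mice in 32 of 36. Among the raised genes diabetic mouse 3 was the highest of all in 21 of 36, and diabetic mouse 1 was the diabetic mouse nearest to the non-diabetic mice in 17.

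**Figure D2:**
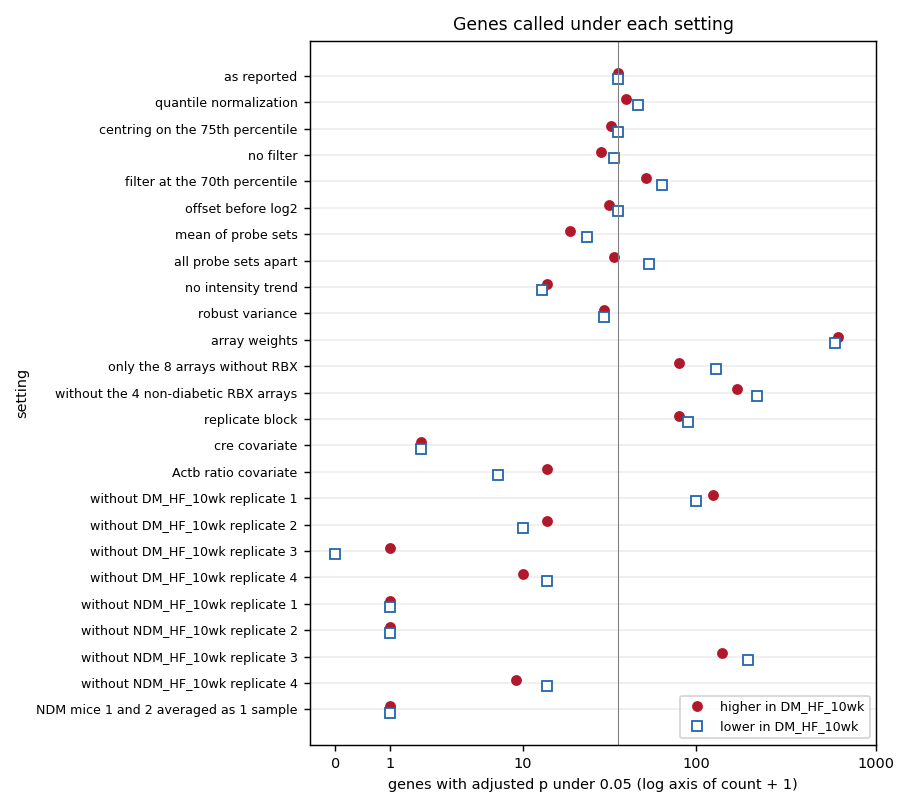
Number of genes higher (filled circles) and lower (open squares) in diabetic than in non-diabetic aorta at an adjusted p under 0.05, on a log axis of the count plus 1, under each setting; the vertical line marks 36. The counts run from 0 to 618, with the lowest when diabetic mouse 3 or non-diabetic mouse 1 or 2 was left out or averaged, and the highest with array weights.

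After quantile normalization, which gives every array the same distribution of signals, 40 genes rose and 47 fell, 0.788% of those tested. Of the 72 genes, 67 were called again and the largest shift of a log2 fold change was 0.15. The 5 genes lost were Tub, Plscr1, F10, Nectin2 and Ifitm3, with adjusted p up to 0.0665, and 20 were gained, 8 higher and 12 lower in diabetic mice.

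The 10 largest rises without overlap between the groups were in Igfbp3, Chil3, F10, Bcl6b, Eef1a2, Ednrb, Fcna, Iigp1, Ldb2 and Rtp4. Of these, Chil3 read 337.1 to 400.4, F10 262.2 to 497.5 and Bcl6b 363.5 to 498.1 in non-diabetic mice. In diabetic mice they read 1097 to 1455.9, 879.5 to 1871.5 and 958.4 to 1107.5. The non-diabetic signals lay around 381.5, the limit of the filter, which used the mean over all 16 arrays. Groups with higher signals thus helped these genes to pass it. The 10 largest falls were in Sphkap, Mylk4, Ptprz1, Sost, Ecm2, Ecrg4, P3h2, Clcn5, Ramp1 and Denn2b. Beyond these leading genes, 26 rises and 23 falls in genes with names remained, and 3 of the falls were clones without a gene name. Log2 values given for a gene are log2 fold changes, diabetic minus non-diabetic, and medians of a gene list are taken over them. The lists were written with earlier results of these data known, and their counts are descriptions. Over all genes 0.326% were called in each direction. At an unadjusted p under 0.05 (limma) 8.14% were higher and 7.1% lower. A called gene was found in 17 of the 49 lists. A list without a called gene is near the share of 0.652% called over all genes and is no result about its genes.

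The called genes are grouped by known role, a grouping made after the calls were seen and not tested unless a list is named. Those with roles in calcium and cyclic nucleotide signalling included falls and a rise. Adcy5, adenylyl cyclase 5, which makes cyclic AMP, read 13364, 11314, 8195 and 9009 in diabetic mice, against 22235, 20889, 17139 and 20217 in non-diabetic mice (log2 -0.96, SE 0.21, adjusted p = 0.0424). Gucy1a1, the alpha 1 subunit of soluble guanylyl cyclase, the receptor for nitric oxide, read 12122, 9427, 7639.9 and 8846 in diabetic mice, against 17262, 17784, 12987 and 19603 in non-diabetic mice (log2 -0.83, SE 0.19, adjusted p = 0.0447). In both genes every diabetic mouse lay below every non-diabetic mouse, with diabetic mouse 3 the lowest and non-diabetic mouse 3 the nearest to the diabetic group. A second Adcy5 probe set gave a smaller log2 difference of -0.16 (limma, unadjusted p = 0.379). Further Gucy1a1 probe sets gave -0.39 and -0.44 (limma, unadjusted p = 0.0492 and 0.0419). The partner subunit gene Gucy1b1, looked at after its values were seen, gave log2 -0.64, adjusted p = 0.118 and did not pass. Camk2d, the delta chain of calcium/calmodulin-dependent kinase II, read 3352, 3441, 2875 and 2946 in diabetic mice, against 5523, 5318, 5246 and 7236 in non-diabetic mice (log2 -0.88, SE 0.17, adjusted p = 0.0264). Its groups did not overlap, and non-diabetic mouse 4 stood above the rest of its group. Further Camk2d probe sets gave smaller log2 differences of -0.36, -0.07, -0.22, -0.16 and -0.28.

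Plcd1, phospholipase C delta 1, which cleaves membrane phosphoinositides, read 3107, 2661, 2352 and 2520.3 in diabetic mice, against 5076, 5168, 3912 and 3621 in non-diabetic mice (log2 -0.73, SE 0.15, adjusted p = 0.0298). Here non-diabetic mice 3 and 4 were the nearer ones and the groups stayed apart. Tmem38b, a cation channel of the sarcoplasmic reticulum that supports calcium release, read 4844, 4403, 4055 and 4385 in diabetic mice, against 6987, 7181, 6792 and 8109.8 in non-diabetic mice (log2 -0.72, SE 0.12, adjusted p = 0.012). Asph, whose locus also encodes the calcium store protein junctin, read 3538, 2577, 2536 and 2226 in diabetic mice, against 5489.7, 5771, 3693 and 5356 in non-diabetic mice (log2 -0.90, SE 0.16, adjusted p = 0.0173). Both fell with no overlap, though for Asph diabetic mouse 1 was only just below non-diabetic mouse 3. Of 3 further Asph probe sets 2 were lower in diabetic mice at an unadjusted p under 0.05, and the other gave a log2 difference of 0.02. Other Tmem38b probe sets gave smaller log2 differences of -0.29 and -0.26. Itpr2, a calcium release channel gated by inositol trisphosphate, read 1893, 1607, 1926 and 1859 in diabetic mice, against 942.5, 947.4, 1255 and 1345 in non-diabetic mice (log2 0.71, SE 0.13, adjusted p = 0.0203). It rose, with no overlap between the groups.

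In the list of vasoactive receptors and peptides 1 of 16 measured genes rose and 2 fell, with a median log2 fold change of 0.06. Over all genes 0.326% were called in each direction and the median was 0.01. The genes called in the list are given next. They were Ednrb, an endothelin receptor, Ramp1, a subunit of calcitonin family receptors, and Gucy1a1. Nos3, the endothelial nitric oxide synthase, read 5505, 5345, 7747 and 8750.2 in diabetic mice, against 4214, 4055, 3534 and 5756 in non-diabetic mice. Its diabetic mice were mostly higher, non-diabetic mouse 4 lay above diabetic mice 1 and 2, and it did not pass (log2 0.63, SE 0.17, adjusted p = 0.0759). Ion channels and transporters of the vessel wall had 2 of 20 genes lowered, Sphkap and Clcn5, and a median of -0.13.

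Genes that act in adhesion to matrix or in the cytoskeleton were called in both directions. Itga7, the integrin alpha 7 chain that binds laminin, read 3140.3, 2617, 2242 and 2841 in diabetic mice, against 5238, 4999.6, 3788 and 5371 in non-diabetic mice (log2 -0.84, SE 0.14, adjusted p = 0.012). Lims2, an adaptor of integrin adhesions, read 11159.6, 8502, 8798 and 8851 in diabetic mice, against 16565, 19746, 12100.3 and 20280.4 in non-diabetic mice (log2 -0.86, SE 0.18, adjusted p = 0.0319). Dag1, dystroglycan, a laminin receptor linked to actin, read 9635, 10414, 9373 and 9447 in diabetic mice, against 14945, 14971, 10687 and 13634 in non-diabetic mice (log2 -0.47, SE 0.10, adjusted p = 0.045). In these 3 genes all diabetic mice lay below all non-diabetic mice, and non-diabetic mouse 3 came close to them. Further Dag1 probe sets gave smaller log2 differences of -0.12, -0.30 and -0.26. Macf1, which crosslinks microtubules and actin, read 8437, 8998, 8835 and 7599 in diabetic mice, against 11993, 11887, 10206 and 12023 in non-diabetic mice (log2 -0.44, SE 0.09, adjusted p = 0.0319). Cap2, an actin-binding regulator of filament turnover, read 2085, 1774, 1716 and 2174 in diabetic mice, against 3914, 3928, 2708 and 4015 in non-diabetic mice (log2 -0.90, SE 0.19, adjusted p = 0.0343). Both kept their groups apart, with non-diabetic mouse 3 again the lowest of its group. Other probe sets gave smaller log2 differences, -0.27 and -0.07 for Macf1 and -0.78 for Cap2. Lamb1, the laminin beta 1 chain of basement membranes, read 3183, 4375, 4319 and 4690.4 in diabetic mice, against 2507, 2715, 2795 and 2978 in non-diabetic mice (log2 0.58, SE 0.13, adjusted p = 0.0445). Lima1, an actin-binding protein, gave log2 0.51, adjusted p = 0.0429. Both rose, with every diabetic mouse above every non-diabetic mouse.

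The remaining lowered genes covered other roles. Cryab, a small heat shock protein of muscle, read 13461, 14581, 13079 and 12681 in diabetic mice, against 21807, 21913, 15677 and 20689 in non-diabetic mice (log2 -0.56, SE 0.12, adjusted p = 0.0319). Wfdc1, a secreted protein with a whey acidic protein domain, read 3269, 2988, 2692 and 2745 in diabetic mice, against 6406, 6542, 4423 and 6297 in non-diabetic mice (log2 -1.004, SE 0.15, adjusted p = 0.01). Wfdc1 was at its lowest in diabetic mouse 3, and all diabetic mice lay below non-diabetic mouse 3. Fstl3, a secreted protein that binds activin, read 2452, 2627, 2627 and 3975 in diabetic mice, against 5709, 5786, 3764 and 5342 in non-diabetic mice (log2 -0.83, SE 0.18, adjusted p = 0.0415). It is the one lowered gene with an overlap, since diabetic mouse 4 lay above non-diabetic mouse 3. Falls without overlap were also found in Lgalsl, a galectin-like protein (log2 -0.72, adjusted p = 0.0304), Fry (log2 -0.70, adjusted p = 0.012), Inafm2 (log2 -0.68, adjusted p = 0.0206) and Lrrfip1 (log2 -0.66, adjusted p = 0.0376). Smarcd3, a subunit of the SWI/SNF chromatin remodelling complex (log2 -0.65, adjusted p = 0.0199), and Ift43, of intraflagellar transport in cilia (log2 -0.61, adjusted p = 0.0117), fell too. Hip1, an adaptor between clathrin and actin (log2 -0.49, adjusted p = 0.0304), and Rasl12, a Ras-like small GTPase (log2 -0.90, adjusted p = 0.026), also fell. Other Hip1 probe sets gave smaller log2 differences of -0.12, -0.20 and -0.04 (limma, unadjusted p = 0.601, 0.568 and 0.897). Tub (log2 -0.95, adjusted p = 0.0415) fell on the deposited scale and did not pass after quantile normalization (log2 -0.93, adjusted p = 0.0524).

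Some lowered genes passed only after quantile normalization. Vcl, vinculin, which links integrins to actin, read 33620.0, 34157, 27984 and 29003 in diabetic mice, against 49932, 44653, 36291 and 48123 in non-diabetic mice. Its groups did not overlap, and it gave log2 -0.52, adjusted p = 0.0527 as deposited and log2 -0.59, adjusted p = 0.0296 after quantile normalization. Tns1, tensin 1, gave log2 -0.69, adjusted p = 0.0603 and then log2 -0.75, adjusted p = 0.044. Enah, an elongation factor of actin filaments, gave log2 -0.75, adjusted p = 0.0583 and then log2 -0.82, adjusted p = 0.0418. Tropomyosin 1, Tpm1, gave log2 -0.62, adjusted p = 0.0582 and then log2 -0.68, adjusted p = 0.044. In these 3 genes every diabetic mouse lay below every non-diabetic mouse. Actn1, the crosslinker alpha actinin 1, gave log2 -0.41, adjusted p = 0.0831 and then log2 -0.55, adjusted p = 0.0467. Ccn3, a matricellular protein, read 41517, 43408, 33523 and 34853 in diabetic mice, against 62394, 61616, 70058 and 60549.9 in non-diabetic mice and gave log2 -0.74, adjusted p = 0.0524 and then log2 -0.86, adjusted p = 0.0232. Its highest diabetic mouse was well below its lowest non-diabetic mouse. Gnai1, an inhibitory G protein alpha subunit, gave log2 -0.53, adjusted p = 0.0524 and then log2 -0.55, adjusted p = 0.0405, and Vasn, vasorin, gave log2 -0.67, adjusted p = 0.0524 and then log2 -0.68, adjusted p = 0.0415.

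Beside these falls, 20 of 23 contractile smooth muscle markers lay below 0, 2 of them called lower (Ramp1 and Sost). Over all genes 0.326% were called lower and 52.4% lay above 0. The median log2 fold change of the 23 markers was -0.38 as deposited and -0.50 after quantile normalization. The summed signals given above did not overlap between the groups, and no marker was at 0. The part of smooth muscle content in the falls was not tested.

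**Figure D3:**
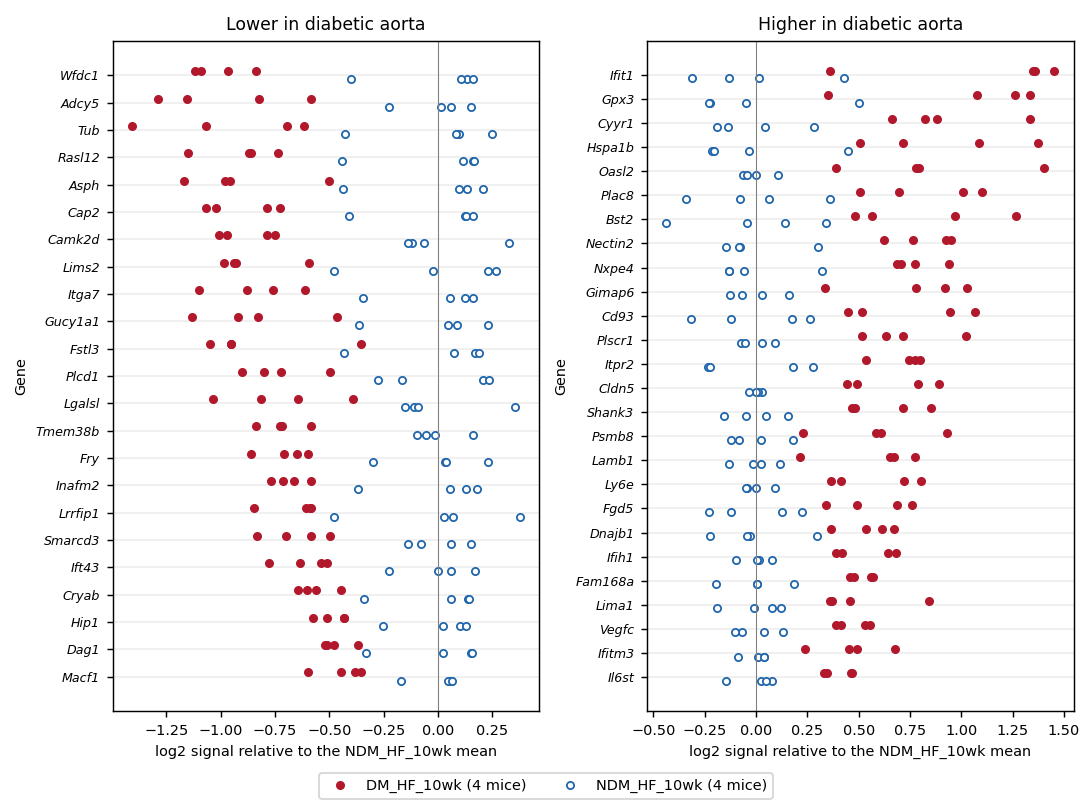
Log2 signal of each mouse relative to the mean of the non-diabetic mice, for the 23 lowered (left) and 26 raised (right) named genes beyond the leading ones; filled points are the 4 diabetic mice and open points the 4 non-diabetic mice. The groups overlap in Fstl3, Gpx3 and Ifit1 only, and non-diabetic mouse 3 is the open point farthest left in most of the lowered genes.

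In the interferon response list 6 of 26 measured genes rose (Iigp1, Ifit1, Ifih1, Oasl2, Bst2 and Rtp4), none fell, and the median was 0.50. Over all genes 0.326% rose and the median was 0.01. The promoters of Ifit1 and Bst2 are shown because each holds matches to the response element before its start, while in Ifih1 and Ifitm3 the matches lie after it. The stretches run 5′ to 3′ on the strand of the gene in GRCm38.p6, from RefSeq. Capitals mark every match to the ISRE core, which is GAAA, any 2 bases and GAAA again, or its complement on the other strand (TTTC, any 2 bases, TTTC). For Ifit1 the stretch is chr19:34640739-34640838 on the plus strand, with matches 104 and 85 bases before the start. For Bst2 it is chr8:71537523-71537622 on the minus strand, with overlapping matches 130 and 124 bases before the start.
Ifit1: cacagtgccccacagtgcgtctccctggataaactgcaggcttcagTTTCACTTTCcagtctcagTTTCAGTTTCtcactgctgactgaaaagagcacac
Bst2: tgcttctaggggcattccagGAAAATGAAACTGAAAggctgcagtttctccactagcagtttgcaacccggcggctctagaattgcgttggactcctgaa

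The core was found in 4 of the 30 raised genes with a listed promoter (Ifit1, Bst2, Ifih1 and Ifitm3), in 0 of the 29 lowered ones and in 324 of 8950 of all genes tested, 3.62%. The window searched runs from 250 bases before to 50 bases after the start. In the interferon response list 13 of 19 promoters held it. The CArG box, the element bound by serum response factor at smooth muscle genes, was found in 1 of the 30 raised genes and 1 of the 29 lowered ones, against 1.62% of all genes. A match is a run of letters and shows no binding.

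Ifit1, which binds viral RNA that lacks host cap methylation, read 1597, 3171, 3409.6 and 3189 in diabetic mice, against 1259, 1136, 1673 and 1004 in non-diabetic mice (log2 1.13, SE 0.21, adjusted p = 0.0199). Diabetic mouse 1 lay within the non-diabetic range, and the other three diabetic mice were clearly higher. Bst2, tetherin, which holds budding virions on the cell, read 2845, 3005, 4888 and 3986 in diabetic mice, against 1971, 1503, 2574 and 2244 in non-diabetic mice (log2 0.82, SE 0.18, adjusted p = 0.0415). Oasl2, an oligoadenylate synthetase-like protein, read 2199, 2881, 4443 and 2907 in diabetic mice, against 1806, 1607, 1678 and 1629.8 in non-diabetic mice (log2 0.84, SE 0.18, adjusted p = 0.0343). Both had diabetic mouse 3 highest and no overlap between groups. Ifih1, the sensor of double-stranded RNA also called MDA5, read 3102, 3628, 3718 and 3042 in diabetic mice, against 2346, 2449, 2168 and 2328 in non-diabetic mice (log2 0.53, SE 0.11, adjusted p = 0.0264). Of the raised genes outside that list, Ly6e, a lipid-anchored surface protein induced by interferon, read 24247, 25069.8, 32850.0 and 30964 in diabetic mice, against 20028, 18273, 18188 and 18798 in non-diabetic mice (log2 0.58, SE 0.10, adjusted p = 0.012). Its non-diabetic mice were tightly grouped and every diabetic mouse lay above them. Ifitm3, a membrane protein that blocks virus entry, read 54075, 62828, 73275 and 64527 in diabetic mice, against 47098, 46173, 43128 and 47031 in non-diabetic mice (log2 0.47, SE 0.10, adjusted p = 0.0429). It kept its groups apart but did not pass after quantile normalization (log2 0.38, adjusted p = 0.0665). Plscr1, an interferon-inducible scramblase of membrane phospholipids, behaved likewise (log2 0.72, adjusted p = 0.0429, then log2 0.67, adjusted p = 0.0563). Psmb8, an immunoproteasome subunit, read 2968, 3804, 4834 and 3865 in diabetic mice, against 2582, 2395, 2871 and 2328 in non-diabetic mice (log2 0.59, SE 0.13, adjusted p = 0.0427), with diabetic mouse 1 just above the highest non-diabetic mouse. A second, dimmer Psmb8 probe set gave a log2 difference of 0.16 (limma, unadjusted p = 0.651).

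In the class I MHC and immunoproteasome list, which displays peptides of the cell interior, 1 of 12 genes rose (Psmb8) and 11 lay above 0, with a median of 0.24. Over all genes 0.326% rose and 52.4% lay above 0. Psmb10 gave log2 0.42, adjusted p = 0.0565 as deposited and log2 0.43, adjusted p = 0.0467 after quantile normalization. H2-K1, a class I heavy chain, gave log2 0.44, adjusted p = 0.0908 and H2-D1 gave log2 0.41, adjusted p = 0.133, and neither passed. Of the 6 class II genes none passed (limma, 0 also at an unadjusted p under 0.05), and their median was 0.12. Plac8, a cysteine-rich protein of leukocytes and epithelia, read 5862, 8293, 8857 and 6674 in diabetic mice, against 4304, 5296, 3249.8 and 3899.6 in non-diabetic mice (log2 0.83, SE 0.16, adjusted p = 0.0246). Every diabetic mouse was higher, though mouse 1 only slightly so.

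Of 22 endothelial markers 3 rose, Cyyr1, Bcl6b and Cldn5, where 0.326% of all genes rose. Cldn5, the tight junction protein claudin 5, read 4378, 4229.5, 5372 and 5764 in diabetic mice, against 3166, 3131, 3103 and 3032 in non-diabetic mice (log2 0.66, SE 0.13, adjusted p = 0.0307). Cd93, a transmembrane receptor of endothelium and myeloid cells that is not in that list, read 24268, 25449.5, 37233 and 34163 in diabetic mice, against 16324, 14273, 21323 and 20064 in non-diabetic mice (log2 0.74, SE 0.16, adjusted p = 0.0337). Cyyr1 read 2167, 1943, 3094 and 2256 in diabetic mice, against 1266, 1076, 1490.0 and 1114 in non-diabetic mice (log2 0.93, SE 0.16, adjusted p = 0.012). All diabetic mice exceeded all non-diabetic mice in these genes. Others outside the list rose too. Fgd5, an exchange factor for the small GTPase Cdc42 in endothelium, read 3371, 3739, 4499 and 4287 in diabetic mice, against 2443, 2271, 2902 and 3104 in non-diabetic mice (log2 0.57, SE 0.12, adjusted p = 0.0419). Vegfc, a growth factor of lymphatic vessels, read 2703, 2653, 2444 and 2404 in diabetic mice, against 1754, 1709, 1885 and 2013 in non-diabetic mice (log2 0.47, SE 0.11, adjusted p = 0.0492). Gimap6, a GTPase of lymphocytes and endothelium, rose too (log2 0.77, SE 0.16, adjusted p = 0.0335), again without overlap. Ecscr and Card10 lay just outside the threshold as deposited (log2 0.71, adjusted p = 0.0524 and log2 0.56, adjusted p = 0.0513) and passed after quantile normalization.

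Beside these rises, 21 of 22 endothelial markers lay above 0, against 52.4% of all genes. The summed signal of these markers was 89870 to 137856 in diabetic mice, against 77793 to 88948 in non-diabetic mice. The macrophage and foam cell list had 21 of 23 above 0 and 1 called, with sums of 491197 to 754347 in diabetic mice, against 419783 to 635432 in non-diabetic mice. No marker was at 0, the endothelial sums did not overlap and the macrophage sums did. A median above that of all genes was common, found in 37 of the 49 gene lists. The part of cell composition in the rises was not tested.

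The other raised genes had mixed roles. Gpx3, the extracellular glutathione peroxidase, which reduces peroxides, read 25748, 27096, 22603 and 13686 in diabetic mice, against 10365, 9174, 15216 and 9173 in non-diabetic mice (log2 1.01, SE 0.21, adjusted p = 0.0337). Diabetic mouse 4 lay below non-diabetic mouse 3, the one overlap. It was the only gene called of 21 NADPH oxidase and antioxidant genes, whose median was 0.24, and Nox4, an oxidase of smooth muscle, gave log2 -0.68, adjusted p = 0.105. Hspa1b, an inducible heat shock protein of the Hsp70 family, read 22169.9, 25615, 33070.4 and 40479.6 in diabetic mice, against 15254, 13457, 13518 and 21312 in non-diabetic mice (log2 0.92, SE 0.17, adjusted p = 0.0202). Dnajb1, its Hsp40 partner, read 8175, 6887, 8532 and 7746 in diabetic mice, against 5242, 5194, 4586 and 6564 in non-diabetic mice (log2 0.55, SE 0.12, adjusted p = 0.0415). Both were higher in every diabetic mouse. Hspa1a, a nearly identical copy that may share signal with Hspa1b, was added after its values were seen (log2 0.62, adjusted p = 0.117). Within the 16 heat shock chaperones 2 rose and 1 fell (Cryab), against 0.326% of all genes in each direction. The small heat shock protein Hspb1 gave log2 -0.69, adjusted p = 0.092.

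Il6st, the shared receptor chain gp130 of the interleukin 6 family, had a small rise with a small spread: it read 21466, 21191, 23286 and 23253 in diabetic mice, against 17783, 17152, 15222 and 17412 in non-diabetic mice (log2 0.40, SE 0.09, adjusted p = 0.0492). Its lowest diabetic mouse exceeded its highest non-diabetic mouse. The scaffold protein Shank3 (log2 0.63, adjusted p = 0.0319) and Nxpe4 (log2 0.78, adjusted p = 0.0118) rose in the same way. Nectin2, a cell adhesion molecule, rose as deposited (log2 0.82, adjusted p = 0.0492) and did not pass after quantile normalization (log2 0.76, adjusted p = 0.0614).

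Fam168a rose on its brightest probe set (log2 0.52, adjusted p = 0.0206), and a second one gave a log2 difference of -0.16. In all, 60 further probe sets measured 35 of the called genes, 57 of them with the same direction and 28 of those at an unadjusted p under 0.05. The 3 opposite ones belonged to Asph, Fam168a and Clcn5, an endosomal chloride transporter. For Clcn5, called lower (log2 -1.11, adjusted p = 0.0203), the second probe set was higher in diabetic mice (log2 0.37, SE 0.14, unadjusted p = 0.0171), so its direction depended on the probe set.

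**Figure D4:**
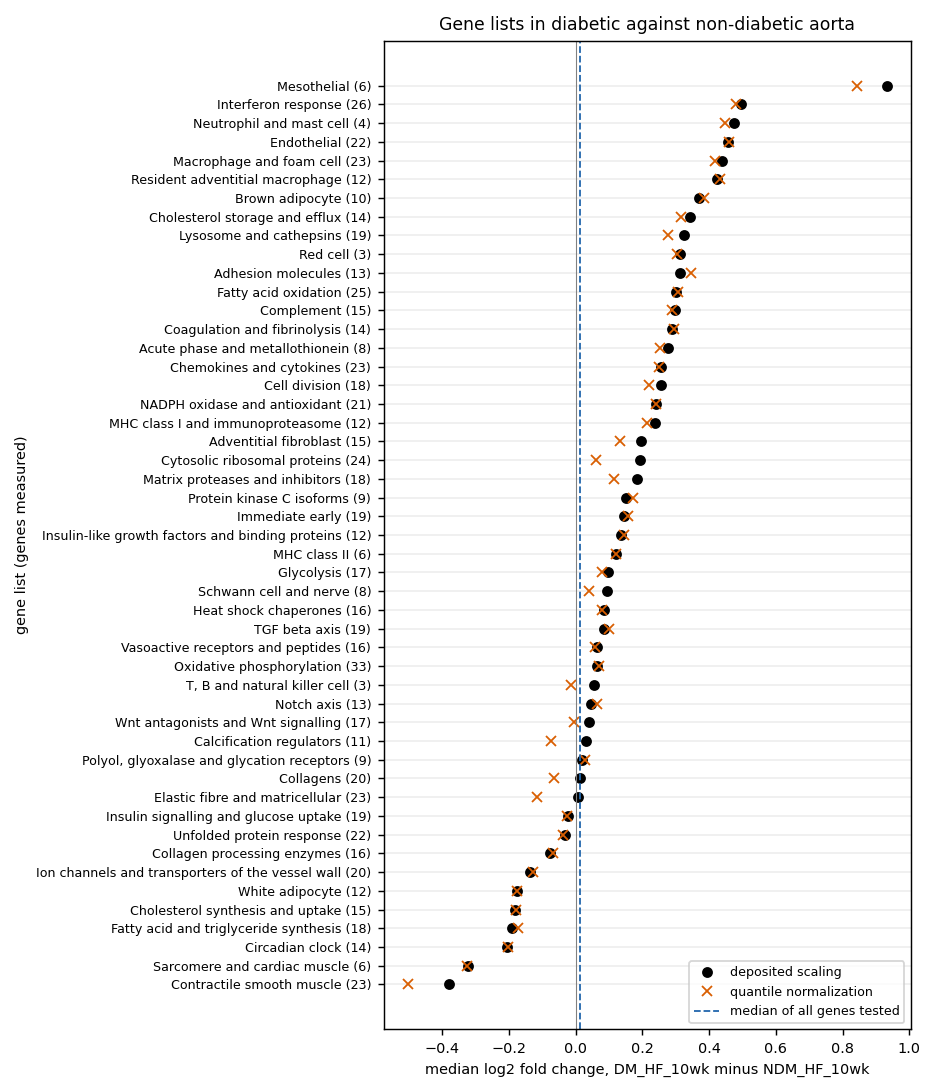
Median log2 fold change, diabetic minus non-diabetic, of 49 gene lists with the number of genes measured in brackets; circles give the deposited scaling, crosses quantile normalization, and the dashed line the median of all genes, 0.01. Mesothelial genes sit at the top (0.93) and contractile smooth muscle genes at the bottom (-0.38).

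Among metabolic genes, no gene of lipid synthesis or of fatty acid oxidation passed, where 0.652% of all genes did. Over all genes 52.4% lay above 0. At an unadjusted p under 0.05 (limma) 8.14% of all genes were higher and 7.1% lower. Of 25 fatty acid oxidation genes 24 lay above 0, with 5 higher at an unadjusted p under 0.05 (limma) and a median of 0.30. Of 18 fatty acid and triglyceride synthesis genes none passed (limma, 2 lower at an unadjusted p under 0.05), and the median was -0.19. Fasn, fatty acid synthase, read 3487, 3604, 3744 and 3222 in diabetic mice, against 8653, 7483, 13229 and 10238 in non-diabetic mice. Its diabetic mice were tightly grouped far below the non-diabetic mice, whose spread was wide (log2 -1.46, SE 0.41, adjusted p = 0.0895). Me1, malic enzyme, which supplies NADPH, gave log2 -0.53, adjusted p = 0.139, Acly, ATP citrate lyase, log2 -0.29, adjusted p = 0.345, and the desaturase Fads1 log2 -0.28, adjusted p = 0.356. Of 15 cholesterol synthesis and uptake genes none passed (3 lower at an unadjusted p under 0.05) and the median was -0.18, with Idi1 at log2 -0.70, adjusted p = 0.144 and Nsdhl at log2 -0.40, adjusted p = 0.237. Of 12 white adipocyte genes 4 lay above 0 and 8 below, none passed (limma, 2 lower at an unadjusted p under 0.05, Fasn and Plin4) and the median was -0.17. Plin4 gave log2 -0.50, adjusted p = 0.111, Pnpla2 log2 0.38, adjusted p = 0.362, and Retn log2 -0.70, adjusted p = 0.371. The summed signals of the list overlapped, 121073 to 257081 in diabetic mice, against 157611 to 240716 in non-diabetic mice. The part of fat on the vessel in these values was not tested.

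In glucose metabolism the list medians were small, and single genes differed in both directions. Of 17 glycolytic genes none passed (limma, 3 higher and 3 lower at an unadjusted p under 0.05), with a median of 0.10. Over all genes 0.652% passed, and 8.14% were higher and 7.1% lower at that unadjusted p. Ldha, lactate dehydrogenase A, gave log2 0.29, adjusted p = 0.136, Pgk1, phosphoglycerate kinase, log2 0.27, adjusted p = 0.19, and the hexokinase gene Hk2 log2 -0.38, adjusted p = 0.192. Of 19 insulin signalling and glucose uptake genes none passed, with 2 in each direction at an unadjusted p under 0.05 and a median of -0.02. Grb14, an inhibitor of the insulin receptor, gave log2 -0.86, adjusted p = 0.0819, the phosphatase gene Ptpn1 log2 0.36, adjusted p = 0.18, and Irs2, an adaptor of the receptor, log2 0.92, adjusted p = 0.195. Irs2 read 850.5, 805.3, 654.8 and 916.3 in diabetic mice, against 396.1, 649.2, 191.9 and 648.5 in non-diabetic mice, with every diabetic mouse above the non-diabetic ones. Its signal in non-diabetic mouse 3 lay under 381.5, the signal limit of the filter. Akr1b8, an aldo-keto reductase, gave log2 0.47, adjusted p = 0.0858, and the list of polyol, glyoxalase and glycation genes had a median of 0.02. In the list of insulin-like growth factors and their binding proteins Igfbp3 rose and Igfbp4 (log2 0.35, adjusted p = 0.126) and Igf1 (log2 0.39, adjusted p = 0.194) did not pass. Oxidative phosphorylation had none of 33 genes called and a median of 0.06 (1 lower at an unadjusted p under 0.05).

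Protein kinase C genes, of interest because RBX acts on 1 isoform, did not pass. Prkcb read 2085, 2081, 2637 and 2482 in diabetic mice, against 2396, 2095, 2412 and 1126 in non-diabetic mice, with overlapping groups (log2 0.26, SE 0.20, adjusted p = 0.568). Prkch, the eta isoform, gave log2 0.48, adjusted p = 0.126, and the list of 9 had a median of 0.15. Apoe, the disrupted gene, read 557.3, 857.2, 1015 and 974.2 in diabetic mice, against 493.4, 410.4, 843.2 and 435.9 in non-diabetic mice, and did not pass (log2 0.67, adjusted p = 0.619). The position of its probe set relative to the disruption is unknown here, and no genotype was read from these signals.

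Matrix genes showed no common direction. Of 20 collagens none passed (limma, 1 higher and 3 lower at an unadjusted p under 0.05). Over all genes 0.652% passed, and 8.14% were higher and 7.1% lower at that unadjusted p. Col18a1, of basement membranes, gave log2 -0.59, adjusted p = 0.0649 and passed after quantile normalization (log2 -0.65, adjusted p = 0.0467). The basement membrane chains Col4a5 and Col4a2 gave log2 -0.52, adjusted p = 0.129 and log2 -0.35, adjusted p = 0.222. The collagen median was 0.01 as deposited and -0.07 after quantile normalization, so its sign depended on the scaling. In the elastic fibre and matricellular list 1 of 23 genes fell (Ecm2), while Fbln2, fibulin 2, gave log2 0.62, adjusted p = 0.0665 and Ltbp1, which stores latent TGF beta, log2 -0.62, adjusted p = 0.0915; that median was 0.01 and then -0.11. Mmp19, a matrix metalloproteinase, read 2479, 2517, 2474 and 5461 in diabetic mice, against 960.2, 1349.8, 2032 and 669.8 in non-diabetic mice. Diabetic mouse 4 stood far above the rest, and the groups did not overlap (log2 1.39, SE 0.37, adjusted p = 0.0755). Mmp2, gelatinase A, gave log2 0.45, adjusted p = 0.0759, and Ctsk, the collagen-degrading cathepsin K, log2 1.01, adjusted p = 0.0565. None of 18 matrix proteases and inhibitors passed (6 higher and 1 lower at an unadjusted p under 0.05), with a median of 0.19.

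Coagulation genes had 1 of 14 called, F10, with 8 higher at an unadjusted p under 0.05 and a median of 0.29. Over all genes 0.326% were called higher, and 8.14% were higher at that unadjusted p (limma). F7, coagulation factor VII, read 2195, 2455, 3434 and 5360.2 in diabetic mice, against 880.6, 1029.5, 2384 and 1296 in non-diabetic mice, with non-diabetic mouse 3 inside the diabetic range (log2 1.29, SE 0.33, adjusted p = 0.0695). Procr, the endothelial protein C receptor, gave log2 0.75, adjusted p = 0.0585. In the complement list Cd93 was the 1 gene called of 15, with a median of 0.30, and Cfp, properdin, gave log2 0.75, adjusted p = 0.072. The adhesion molecule Sele, E-selectin, gave log2 0.93, adjusted p = 0.107, and the scavenger receptor Cd36 gave log2 0.97, adjusted p = 0.0524 as deposited and log2 0.995, adjusted p = 0.0478 after quantile normalization.

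No gene of the Notch axis passed (limma, 4 higher and 2 lower at an unadjusted p under 0.05). Over all genes 0.652% passed, and 8.14% were higher and 7.1% lower at that unadjusted p. Notch1, the receptor, read 3355, 3501, 3741 and 3680.1 in diabetic mice, against 2539.8, 2255, 2149 and 2469.6 in non-diabetic mice. The endothelial ligand Dll4 read 610.5, 610.8, 680.8 and 934.4 in diabetic mice, against 427.2, 259.1, 355.1 and 342.9 in non-diabetic mice. Both had every diabetic mouse above the non-diabetic mice without passing (log2 0.60, adjusted p = 0.0582 and log2 1.03, adjusted p = 0.0755). Nrarp, a feedback regulator, gave log2 0.64, adjusted p = 0.107, and Heyl, a Notch target of smooth muscle, log2 -0.69, adjusted p = 0.0863. Over the 13 genes the median was 0.05. Tnfrsf11b, osteoprotegerin, a decoy receptor that limits bone resorption, gave log2 -0.71, adjusted p = 0.0986 among 11 calcification regulators, whose median was 0.03 and turned to -0.07 after quantile normalization. Circadian clock genes had a median of -0.20, with Tef at log2 -0.42, adjusted p = 0.146 and Per3 at log2 -0.56, adjusted p = 0.242. No label states the hour at which the aortas were taken.

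Some lists had a uniform direction without a called gene. Over all genes 52.4% lay above 0, and 8.14% were higher at an unadjusted p under 0.05 (limma). All 19 lysosome and cathepsin genes lay above 0, with 8 at an unadjusted p under 0.05 (limma) and a median of 0.33. All 14 cholesterol storage and efflux genes lay above 0 too, with 5 at an unadjusted p under 0.05 and a median of 0.34. All 24 cytosolic ribosomal protein genes lay above 0, with 11 at an unadjusted p under 0.05 and a median of 0.19, but the median was 0.06 after quantile normalization. All 6 mesothelial genes lay above 0 with a median of 0.93. Upk1b, a uroplakin of mesothelium, read 581.7, 298.5, 1430.2 and 1182 in diabetic mice, against 47.6, 95.2, 1041 and 183.9 in non-diabetic mice, and Upk3b read 474.3, 597, 2568 and 1760.3 in diabetic mice, against 273.3, 197.1, 875 and 598.5 in non-diabetic mice. In both the diabetic mice spread widely and overlapped the non-diabetic mice (log2 2.10, adjusted p = 0.219 and log2 1.38, adjusted p = 0.239). In both genes non-diabetic mice 1 and 2 read under 381.5, the signal limit of the filter. Upk1b did so in non-diabetic mouse 4 and diabetic mouse 2 too. Krt18 (log2 0.71, adjusted p = 0.129) and Lrrn4 (log2 1.15, adjusted p = 0.233) did not pass either, and the summed mesothelial signal was 3983 to 9910.1 in diabetic mice, against 2798 to 4483 in non-diabetic mice. The red cell gene Slc4a1 gave log2 1.76, adjusted p = 0.225, the neutrophil gene S100a9 log2 0.72, adjusted p = 0.263, the mast cell gene Cma1 log2 0.59, adjusted p = 0.302 and the cytotoxic granule gene Gzma log2 0.52, adjusted p = 0.528. Their part in the results was not tested.

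The genes called here were then read in the mice with RBX, diabetic minus non-diabetic. That comparison shares no array with the one above, but the fit gave both 1 estimate of the spread per gene. All 36 lowered genes lay above 0 there, 21 of them called higher, with a median of 0.59, against a median of -0.04 and 7.07% called over all genes. Of the 36 raised genes 12 lay above and 24 below 0, with 0 called higher, 4 called lower and a median of -0.19. Genes called above were chosen partly for a small spread, which also favours calls with RBX. Their counts called with RBX are therefore not an even match for the 7.07% of all genes. The arrays of the non-diabetic mice with RBX had cre signals of 308744 to 575618, above those of the 8 arrays without RBX. Their log2 Actb 3' to 5' ratios, 1.82, 2.29, 1.67 and 2.51, also lay above those of the 8 arrays without RBX. The diabetic mice with RBX had ratios of 1.47, 1.89, 1.76 and 1.72. The part of either measure in the opposite directions was not tested. The difference between both diabetes effects passed for 36 of 36 lowered and 31 of 36 raised genes, against 11.5% of all genes, but it uses again the arrays that chose them.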

How the data were processed

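The aortas yielded RNA by Trizol extraction, of which 2 ug was turned into biotinylated cRNA, per the labels' protocols. The authors deposited linear intensity values made with MAS5, per the submitters' processing notes (version not given in the sources used here), with every array's mean at 1500.01 after leaving out 2% of values at each end. Of 45101 probe sets 34958 had 1 gene symbol in GEO's platform annotation, 932 several and 9211 none; 99.4% of the first matched RefSeq (GRCm38.p6). Signals were taken to log2 without an offset. Probe sets above the median signal (381.5) were kept, the brightest per gene, which left 11043 genes of 18194 symbols. Groups were compared with limma 3.58.1 in R 4.3.3 on all 16 arrays (4 group means, 12 residual degrees of freedom, intensity trend), two-sided, adjusted by Benjamini-Hochberg over all genes. On simulated data with 11043 genes the fit recovered 75 of 100 changes of 1 and 100 of 100 changes of 2 on the log2 scale, with 7 false calls. The simulation drew independent normal noise for each gene and array, without alike arrays or shifts of whole arrays. It checks the code and does not measure reliability on the real arrays. The number of arrays limits the precision. The comparison, gene lists and members were chosen with earlier results of these data known. Genes named are all called genes with names, up to 4 members of smallest p per list described, up to 10 genes gained by quantile normalization, Apoe, Prkcb, and the 5 nearest the threshold; others are said to be outside this rule. Alternatives covered normalization, filter, offset, probe sets, variance model, samples, block, covariates and single mice.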

Additional observations from a re-analysis of the deposited data

Results flagged for a closer look

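Within each group of 4 mice the highest or lowest value was tested for standing apart from the other three by Dixon's ratio at its critical value for 4 samples. Of 282 such tests 22 passed, and chance passes about 1 in 20. In the non-diabetic mice the lowest mouse stood apart in Sost (7696), Clcn5 (3271), Wfdc1 (4423), Rasl12 (6715), Asph (3693), Cap2 (2708), Macf1 (10206), Actn1 (54739), Mmp2 (9702) and Cma1 (304.9). In Sost, Wfdc1, Rasl12, Asph, Cap2, Macf1, Actn1 and Cma1 that mouse was non-diabetic mouse 3, and in Clcn5 and Mmp2 mouse 4. The highest non-diabetic mouse stood apart in Camk2d (7236), Lgalsl (16985), Nxpe4 (1344), Nectin2 (752), Psmb10 (3346) and H2-K1 (34797). In the diabetic mice the highest stood apart in F10 (1872), Lims2 (11160), Fstl3 (3975) and Mmp19 (5461), and the lowest in Lrrfip1 (12713) and Ifit1 (1597). The diabetes effect without RBX differed from that with RBX, by limma's interaction term at an adjusted p under 0.05, in 31 genes raised and 36 genes lowered by diabetes without RBX. Over all genes 11.5% passed this term. It contains the comparison that chose these genes, so their counts cannot show a difference independently of that choice.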

How the results depend on the processing

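Against 36 raised and 36 lowered genes, the counts moved by over 1.5 times under these settings (raised, then lowered, limma in each). A filter at the 70th percentile gave 64 lowered genes and the mean of a gene's probe sets 19 raised ones. No intensity trend gave 14 and 13, array weights 618 and 591, only the 8 arrays without RBX 80 and 129, and leaving out the 4 non-diabetic RBX arrays 169 and 218. The cre covariate gave 2 and 2, the Actb ratio covariate 14 and 7, and non-diabetic mice 1 and 2 averaged as 1 sample, an alternative chosen after seeing the data, 1 and 1. Leaving out single mice gave 1 to 139 raised and 0 to 195 lowered genes (1150 at an unadjusted p under 0.05 where it was 0). The causes were not tested. Apart from the replicate block, the other settings stayed within 1.5 times.

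The replicate block gave 80 raised and 90 lowered genes and held 70 of the 72. Same-numbered mice had correlations of their deviations of 0.046, 0.029, 0.112 and 0.011, and not every mouse was most like its own number, so the numbers were not taken as pairs.

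Over 1127 list medians and settings, 55 on 17 lists changed sign. The difference of the Gapdh 3' to 5' ratio was 0.035 and turned to -0.0162 without diabetic mouse 1 and -0.00643 without non-diabetic mouse 2, its single-mouse range reaching 0.0941. That of the upper quartile was 0.0015 and turned to -0.000476 without non-diabetic mouse 3 and -0.00362 without non-diabetic mouse 4, its range reaching 0.00866. Detection calls were not used here, so the limit for dim probe sets is unknown.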
